A study of Mus musculus with 2 samples.

Results

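The genes described here encode immunoglobulin-type costimulatory and inhibitory receptors of T cells and their ligands: the CD28 and PD-1 receptors, the B7-type ligands, the TIM, SLAM and nectin-binding families, the CD200 pair and a few related molecules. They were taken by name, as the probe sets whose gene symbol in the platform annotation was one of 35 listed symbols. All 35 had a probe set, 36 probe sets in all, of the 19505 genes measured. Tc9 cells are cultured CD8 T cells that make interleukin 9 and Tc1 cells their interferon gamma-producing counterparts, and the series set out to find genes with higher expression in Tc9 cells. There was 1 array of Tc9 cells and 1 array of Tc1 cells. Mouse CD8 T cells from spleen and lymph node, of a strain, sex and age not given in the sources used here, were activated in both groups with antibodies against CD3 and CD28, polarized for 3 days, cultured for a further 2 days with 10 ng/mL rhIL-2 (recombinant human interleukin 2) and collected at day 5. For Tc9 polarization the medium contained TGF-β at 1 ng/mL, IL-4 at 10 ng/mL and the anti-IFN-γ antibody XMG1.2 at 20 µg/mL. For Tc1 polarization it contained rhIL-2 at 10 ng/mL, and whether the Tc9 medium did so too is not stated. The number of animals behind each culture is not given. The array titled Tc9 has a source name that reads Tc1, and its title was followed.

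These surface proteins add a second signal to that of the T cell receptor. CD28 and ICOS amplify activation when they bind B7-type ligands on another cell, while CTLA-4, PD-1, BTLA, TIGIT and LAG-3 restrain it. Many SLAM receptors bind to themselves on neighbouring cells, and several signal through the small adaptor SAP, and TIGIT, CD96 and CD226 compete for ligands of the nectin family. Activated T cells carry many of the receptors and can also carry some of the ligands, among them CD80 and PD-L1.

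With a single array per group no difference below has a replicate check, no p-value is given, and each difference describes this pair of arrays. Signals are log2 of the deposited intensity, and differences are log2 Tc9 minus log2 Tc1. The detection threshold was the median of all gene values, a log2 signal of 6.43, and a gene counted as detectable where at least one array reached it. Probe sets bind with different strength, so signals are compared between arrays and not between genes. Of the 1158 positive control probe sets that reached the threshold, the central 95% had log2 differences between -0.59 and 0.86, with a median of 0.11. That range serves as a scale only. It comes from this pair of arrays, holds no variation between cultures and is not a replicate spread. The 585 negative control probe sets that reached the threshold spread more widely, with a central 95% between -1.60 and 1.13. The share past 2-fold was 16.2% for the negative and 1.30% for the positive controls. Of the detectable receptor and ligand genes, Cd80 and Cd200r1 lay outside the wider range, and Cd200r1 lay inside it with its dim value raised to the threshold. How many probes a control or gene probe set holds is not given in the sources used here. Il9 was at least 4.07-fold higher on the Tc9 array, and Ifng and Tbx21 were 3.27-fold and 8.30-fold lower. All 7 CD8 T cell markers were detectable, with differences between -0.44 and 0.24. B cell markers (8 of 9 measured) and Cd4 (log2 signals of 8.74 on the Tc9 array and 9.33 on the Tc1 array) were also detectable. Cd40lg, the other CD4 T cell marker measured, was below the threshold on both arrays, at 4.41 on the Tc9 array and 4.56 on the Tc1 array.

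Of the 35 genes, 28 were detectable. The ligand genes Cd80 and Cd274 were at least 2-fold lower on the Tc9 array than on the Tc1 array, and the receptor genes Cd200r1 and Cd101 were past 2-fold in the other direction on measured values. The 2 lower genes were 7.14% of the 28, against 2.79% of all 10147 detectable genes, and the 2 higher ones were also 7.14%, against 2.62%. Both higher genes were below the threshold on the Tc1 array and passed it through the Tc9 array alone. When dim values were raised to the threshold, 0 of the 28 were 2-fold higher, against 2.01% of all detectable genes, and the 2 lower ones remained, against 2.22%. At 1.5-fold, 7 of the 28 were lower, against 6.78% of all detectable genes, and 4 were higher, against 7.80%. Besides those named, the lower genes were Cd86, Icosl, Btla, Slamf7 and Cd200, and the higher ones were Pdcd1lg2 and Slamf6. With dim values at the threshold, 6 remained lower and 3 higher, without Cd86 and Cd200r1. Of all 10147 detectable genes, 548 were lower and 700 higher by that rule. The median difference of the 28 was -0.11, against 0.05 over all detectable genes. Their interquartile range ran from -0.55 to 0.20, against -0.19 to 0.26.

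**Figure D1:**
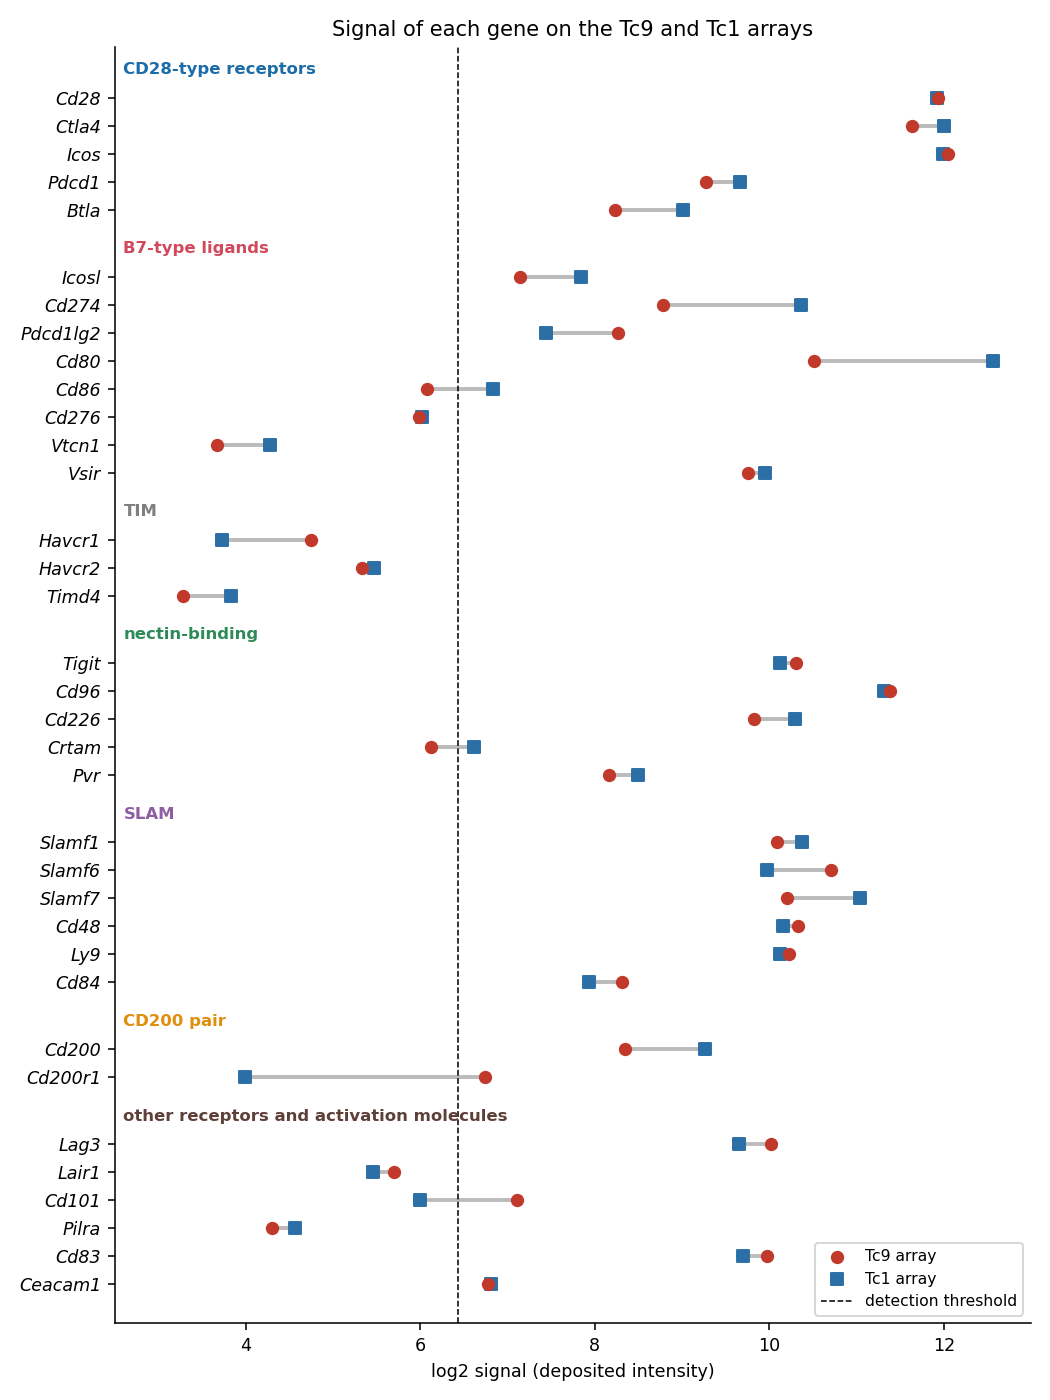
Log2 signal (x axis) of the 35 genes on the Tc9 array (circles) and the Tc1 array (squares), grouped by role, with the detection threshold of 6.43 as a dashed line. The widest gaps are those of Cd200r1, whose Tc1 value lies below the threshold, and of Cd80 and Cd274, which lie above it on both arrays.

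The receptors of the CD28 type were all detectable, and most had like signals on the arrays. Cd28, which encodes the costimulatory receptor that the culture antibody engages, had log2 signals of 11.94 on the Tc9 array and 11.92 on the Tc1 array. Icos, an inducible costimulatory receptor of activated T cells, had 12.05 on the Tc9 array and 11.99 on the Tc1 array. Both differences, 0.02 and 0.05, lay close to the median of all genes. Ctla4, the inhibitory receptor that competes with CD28 for CD80 and CD86, had 11.63 on the Tc9 array and 12.01 on the Tc1 array, a difference of -0.37. Pdcd1, which encodes PD-1, had 9.28 on the Tc9 array and 9.67 on the Tc1 array, a difference of -0.39. These 4 differences lay within the range of the positive controls. Btla, an inhibitory receptor whose ligand is the TNF receptor family member HVEM, was 1.72-fold lower, at 8.24 on the Tc9 array and 9.02 on the Tc1 array. Its difference of -0.78 lay outside the positive control range and inside that of the negative controls, and 4.35% of detectable genes were as low or lower. The HVEM gene Tnfrsf14 differed by -0.06. The median of the 5 receptors was -0.37.

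The B7-type ligands had the lowest median of the role groups, at -0.73 over 6 detectable members of 8 (-0.55 when dim values are raised to the threshold). Of these 6, 5 had lower signals on the Tc9 array, 4 of them by 1.5-fold or more, against 6.78% of all detectable genes, and 1 had a higher one. Raising dim values to the threshold left 3 of the 4, without Cd86, against 548 of all 10147 detectable genes lower by that rule. Cd80, which encodes B7-1, the ligand of CD28 and CTLA-4, was 4.14-fold lower. Its intensity was 1460 on the Tc9 array and 6043 on the Tc1 array, log2 signals of 10.51 and 12.56 in that order. Only 0.660% of detectable genes had a difference as low as the -2.05 of Cd80. Cd86, which encodes B7-2, the other ligand of the same receptors, had 6.08 on the Tc9 array, below the threshold, and 6.83 on the Tc1 array. It was at least 1.32-fold lower. Icosl, the ICOS ligand, was 1.62-fold lower, at 7.14 on the Tc9 array and 7.84 on the Tc1 array.

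The PD-1 ligand genes differed in opposite directions. Cd274, which encodes PD-L1, was 2.98-fold lower, with an intensity of 440.3 on the Tc9 array and 1314 on the Tc1 array. Its log2 signals were 8.78 on the Tc9 array and 10.36 on the Tc1 array, and 1.17% of detectable genes had a difference as low as -1.58. That difference lay just inside the lower bound of the negative controls. Pdcd1lg2, which encodes PD-L2, was 1.76-fold higher, with an intensity of 306.7 on the Tc9 array and 174.0 on the Tc1 array. Its difference of 0.82 lay just inside the upper bound of the positive controls, and 3.78% of detectable genes had one as high. The Pdcd1lg2 difference exceeded that of Cd274 by 2.40 on the log2 scale, and that of their receptor gene Pdcd1 lay between them. Pdcd1lg2 follows Cd274 directly in the GRCm38.p6 order of protein-coding genes. As background, interferon gamma is known to induce Cd274 in many cell types, and IL-4 to induce Pdcd1lg2 in mouse macrophages and dendritic cells. Neither effect was tested here. The additions to the Tc9 medium came together, so their parts cannot be told apart. Vsir, which encodes the inhibitory ligand and receptor VISTA, had a difference of -0.19. Cd276 and Vtcn1, which encode B7-H3 and B7-H4, were below the threshold on both arrays, at log2 signals of at most 6.02.

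The 250 bases before the annotated start are shown for Cd80, the B7-type ligand gene with the largest difference, and for the neighbours Cd274 and Pdcd1lg2, which differed in opposite directions. The sequences are those of RefSeq on GRCm38.p6, 5′ to 3′ on the plus strand, at chr16:38458683-38458932 for Cd80, chr19:29367188-29367437 for Cd274 and chr19:29410669-29410918 for Pdcd1lg2. Capitals mark matches, on either strand, to any of 6 motifs: the gamma-activated site (TTC and GAA with 3 bases between them), the STAT6-type site (TTC and GAA with 4 bases between them), a tandem interferon regulatory factor core (GAAA repeated with 2 bases between), the kB site, the AP-1 site TGANTCA and the T-box site AGGTGTGA.
Cd80: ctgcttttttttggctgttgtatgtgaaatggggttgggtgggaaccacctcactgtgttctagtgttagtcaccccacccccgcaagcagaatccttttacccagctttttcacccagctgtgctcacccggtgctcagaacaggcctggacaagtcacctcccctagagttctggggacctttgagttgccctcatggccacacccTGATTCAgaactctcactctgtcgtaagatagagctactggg
Cd274: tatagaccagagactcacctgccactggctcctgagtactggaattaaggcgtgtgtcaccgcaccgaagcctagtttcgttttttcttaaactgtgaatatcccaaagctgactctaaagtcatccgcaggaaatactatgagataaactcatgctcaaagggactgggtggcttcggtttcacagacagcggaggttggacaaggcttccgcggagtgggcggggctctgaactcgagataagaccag
Pdcd1lg2: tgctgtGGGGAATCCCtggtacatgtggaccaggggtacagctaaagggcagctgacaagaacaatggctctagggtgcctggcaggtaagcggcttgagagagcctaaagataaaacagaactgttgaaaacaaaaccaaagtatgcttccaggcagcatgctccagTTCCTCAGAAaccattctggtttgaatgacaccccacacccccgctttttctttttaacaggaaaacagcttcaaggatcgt
The Cd80 window held 1 match, an AP-1 site that begins 42 bases before the start, and AP-1 sites were in 6.75% of all 32851 promoter windows of this length. The Pdcd1lg2 window held a STAT6-type site beginning 82 bases before the start and a kB site beginning 244 bases before it, which were in 5.85% and 7.25% of all windows. No letters of the Cd274 window matched. A match describes the letters only, and factor binding was not measured.

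**Figure D2:**
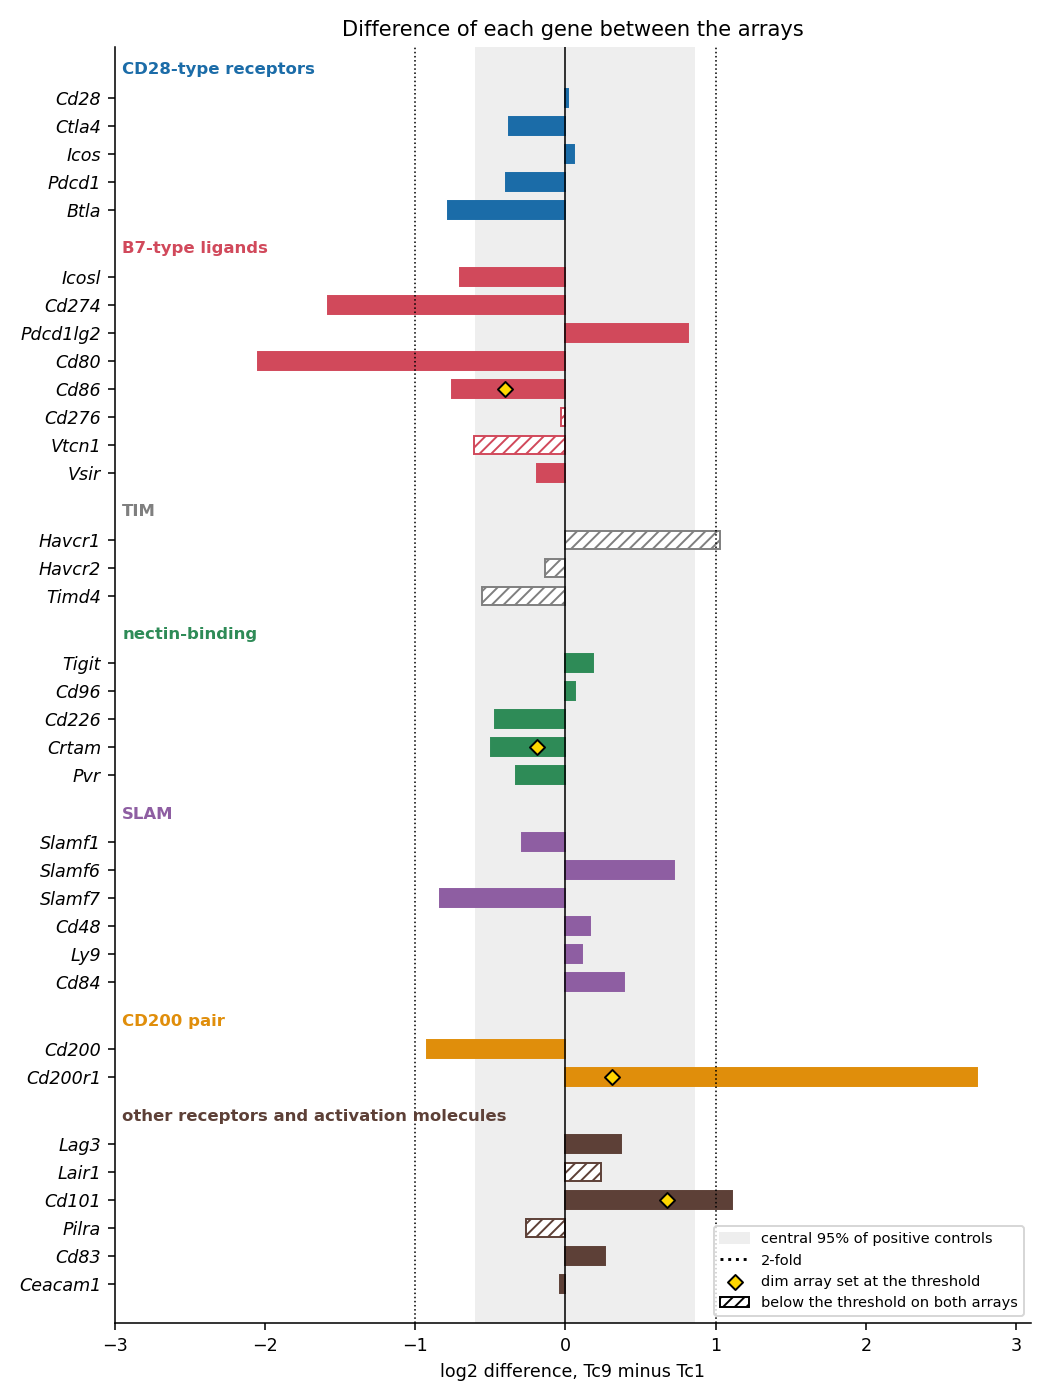
Log2 difference, Tc9 minus Tc1 (x axis), of the 35 genes by role. Filled bars are detectable genes, hatched bars are below the threshold on both arrays, the grey band is the central 95% of positive controls (-0.59 to 0.86), dotted lines mark 2-fold, and diamonds give the difference with the dim array set at the threshold. Cd80 (-2.05) and Cd274 (-1.58) pass 2-fold with both arrays above the threshold, while the bars of Cd200r1 (2.74) and Cd101 (1.11) shorten to 0.31 and 0.68.

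Antigen-presenting cells also carry B7-type ligands, so markers of other cell types are given beside them. All 8 detectable B cell markers had lower signals on the Tc9 array, though the sign of Ebf1 turns under the shift of 0.07 that median centring gives, with a median difference of -0.43, and the summed intensity of the 9 measured was 3260.3 on the Tc9 array and 4650.6 on the Tc1 array. Fcrla was below the threshold on the Tc9 array and at least 1.30-fold lower, and the 7 others ran from -0.97 for Cd79a to -0.01 for Ebf1, with Blnk at -0.86, and Cr2 stayed under the threshold. Icosl (-0.70) lay within the range of the 7, and Cd274 (-1.58) and Cd80 (-2.05) lay below it. Of 9 monocyte and macrophage markers, 4 were detectable: Lyz2 was higher on the Tc9 array (0.43), and Itgam (-0.19), Fcgr1 (at least 1.17-fold) and Fcgr3 (-0.87) were lower. The markers Csf1r, Adgre1, Cd14, Mertk and Mrc1 stayed under the threshold on each array. The summed intensity of the 9 was 1031.9 on the Tc9 array and 1077.3 on the Tc1 array. Of 8 dendritic cell markers, only Batf3 (-0.61), which activated T cells also express, and Zbtb46 were detectable. Zbtb46 was below the threshold on the Tc9 array and at least 1.33-fold lower, and Flt3, Itgax, Xcr1, Clec9a, Cd209a and Siglech were below the threshold on both arrays. The summed intensity of the 8 was 724.3 on the Tc9 array and 1001.1 on the Tc1 array. Batf3 alone gave 482.9 of it on the Tc9 array and 739.2 on the Tc1 array. Of 3 measured NK cell markers, Ncr1 and Klrb1c stayed under the threshold on each array, and Gzma, a granzyme of cytotoxic T cells too, was detectable with a difference of 0.12. The part of these cells in the ligand differences was not tested, and in a bulk RNA sample fewer cells of a type and less RNA per cell cannot be told apart.

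On measured values the CD200 pair also differed in opposite directions, but the Cd200r1 signals were dim. Cd200, which encodes a ligand that restrains cells carrying its receptor, was 1.89-fold lower, at a log2 signal of 8.35 on the Tc9 array and 9.27 on the Tc1 array. Cd200r1, the inhibitory receptor for CD200, had an intensity of 106.8 on the Tc9 array and 15.97 on the Tc1 array. Its Tc9 signal of 6.74 was just above the threshold and its Tc1 signal far below it, so it was at least 1.24-fold higher. With the dim value at the threshold its difference was 0.31, inside the positive control range. Both Cd200r1 signals were below the 95th percentile of the negative controls, 7.02 on the Tc9 array and 7.30 on the Tc1 array. Related genes can share probes with Cd200r1, and whether they do so here was not tested. Among these relatives, Cd200r2 had 6.12 on the Tc9 array and 6.71 on the Tc1 array. Cd200r3 and Cd200r4 were below the threshold on both arrays. Of 337 detectable genes that were below the threshold on the Tc1 array alone, 35.0% were past 2-fold higher on measured values, against 1.58% of the 9358 genes above the threshold on both arrays.

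Cd101, an inhibitory surface protein of T cells and myeloid cells, was also higher on the Tc9 array with a dim Tc1 value, at a smaller size. Its intensity was 137.9 on the Tc9 array and 63.88 on the Tc1 array. The Tc1 value was below the threshold, and it was at least 1.60-fold higher. Lag3, an inhibitory receptor that binds MHC class II, had 10.02 on the Tc9 array and 9.65 on the Tc1 array, a difference of 0.37. Cd83, an activation marker of dendritic cells and lymphocytes, had a difference of 0.27, and its second probe set gave 0.37. Ceacam1, a homophilic adhesion receptor and inhibitor of T cell activation, differed by -0.04, and its near-identical relative Ceacam2 was under the threshold on each array. The collagen receptor gene Lair1 and the paired receptor gene Pilra were below the threshold on both arrays, at signals of at most 5.70. Apart from Cd101, the detectable genes of this group lay within the range of the positive controls.

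**Figure D3:**
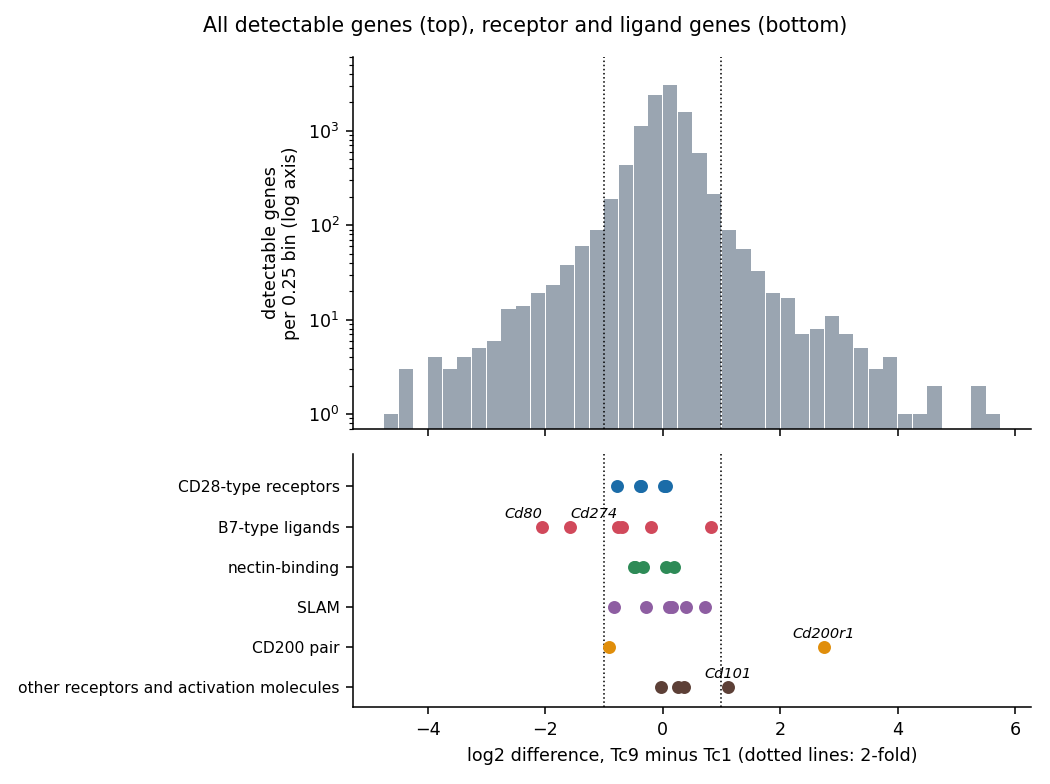
Upper panel: number of detectable genes (log axis) in bins of 0.25 of the log2 difference, Tc9 minus Tc1, over 10147 genes. Lower panel: the 28 detectable receptor and ligand genes on the same x axis by role, with dotted lines at 2-fold. Cd80 and Cd274 stand on the low side and Cd200r1 and Cd101 on the high side, while the 24 others lie within 2-fold.

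The 6 listed SLAM genes were all detectable, and they differed in both directions. Slamf7, which encodes CRACC, a receptor of cytotoxic lymphocytes, was 1.79-fold lower, at 10.20 on the Tc9 array and 11.04 on the Tc1 array. Slamf6, which encodes Ly108, a marker of stem-like CD8 T cells in chronic infection, was 1.65-fold higher, at 10.70 on the Tc9 array and 9.98 on the Tc1 array. Of all detectable genes, 3.82% were as low as Slamf7 and 5.11% as high as Slamf6. The Slamf6 difference of 0.72 lay inside the range of the positive controls and the Slamf7 difference of -0.84 outside it, and both were inside that of the negative controls. Cd84 (0.39), Cd48 (0.17) and Ly9 (0.11) had slightly higher signals on the Tc9 array, and Slamf1 (-0.29) a slightly lower one. CD48 is a ligand of the receptor 2B4, itself of the SLAM family. Its gene Cd244a and the further family genes Slamf8 and Slamf9 were below the threshold on both arrays. The 6 listed genes lie together on chromosome 1, in the order Ly9, Slamf7, Cd48, Slamf1, Cd84 and Slamf6. At most 1 other protein-coding gene lies between consecutive members. Sh2d1a, which encodes SAP, an adaptor of several SLAM receptors, was 2.46-fold lower, at 9.02 on the Tc9 array and 10.31 on the Tc1 array. The Slamf6 difference exceeded that of Sh2d1a by 2.02 on the log2 scale.

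The nectin-binding genes all stayed within 1.5-fold, as did 8668 of all 10147 detectable genes. Tigit, an inhibitory receptor, had 10.30 on the Tc9 array and 10.12 on the Tc1 array, and Cd96, a receptor of T and NK cells, had 11.38 on the Tc9 array and 11.32 on the Tc1 array. Cd226, the activating receptor that shares ligands with both, had 9.83 on the Tc9 array and 10.30 on the Tc1 array. The Cd226 difference lay 0.65 below that of Tigit on the log2 scale, and both were inside the positive control range. Crtam, a receptor of activated CD8 T cells and NK cells, had 6.12 on the Tc9 array, below the threshold, and 6.62 on the Tc1 array, and was at least 1.14-fold lower. The ligand gene Pvr, which encodes CD155, had a difference of -0.33. Nectin2, which encodes another ligand of TIGIT and CD226, had 6.71 on the Tc9 array and 5.41 on the Tc1 array, below the threshold, and was at least 1.21-fold higher.

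None of the TIM genes was detectable. Havcr2, which encodes the inhibitory receptor TIM-3, had 5.34 on the Tc9 array and 5.48 on the Tc1 array. Havcr1, which encodes TIM-1, had 4.75 on the Tc9 array and 3.73 on the Tc1 array. Timd4, a phosphatidylserine receptor of antigen-presenting cells, had 3.28 on the Tc9 array and 3.84 on the Tc1 array. No fold is given for these, and the TIM-3 ligand gene Lgals9, which encodes galectin-9, was 1.45-fold lower with a difference of -0.53. Signals below the threshold do not show that a gene was silent.

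Signalling partners and further ligands were read from a list of 48 genes, of which 44 were measured and 33 detectable. Of these 33, 2 were past 2-fold higher and 2 lower, against the 2.62% and 2.79% of all detectable genes given above. Both higher genes were below the threshold on the Tc1 array, and 1 of them, Trat1, stayed past 2-fold when dim values were raised to the threshold. Trat1, whose product is a T cell receptor-associated adaptor, had 9.11 on the Tc9 array and 5.28 on the Tc1 array and was at least 6.40-fold higher. Nectin2 was the other higher gene. Fcer1g, a signalling adaptor of immunoglobulin-type and NK receptors, was 3.18-fold lower, beside Sh2d1a. Within 1.5-fold were 25 of the 33, against 8668 of all 10147 detectable genes. Among the 25 were Ptpn6 and Ptpn11, which encode the phosphatases SHP-1 and SHP-2 recruited by PD-1 and BTLA, at -0.05 and 0.10. Grb2, an adaptor of CD28, was also among them, at 0.08. The list's median was 0.02.

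**Figure D4:**
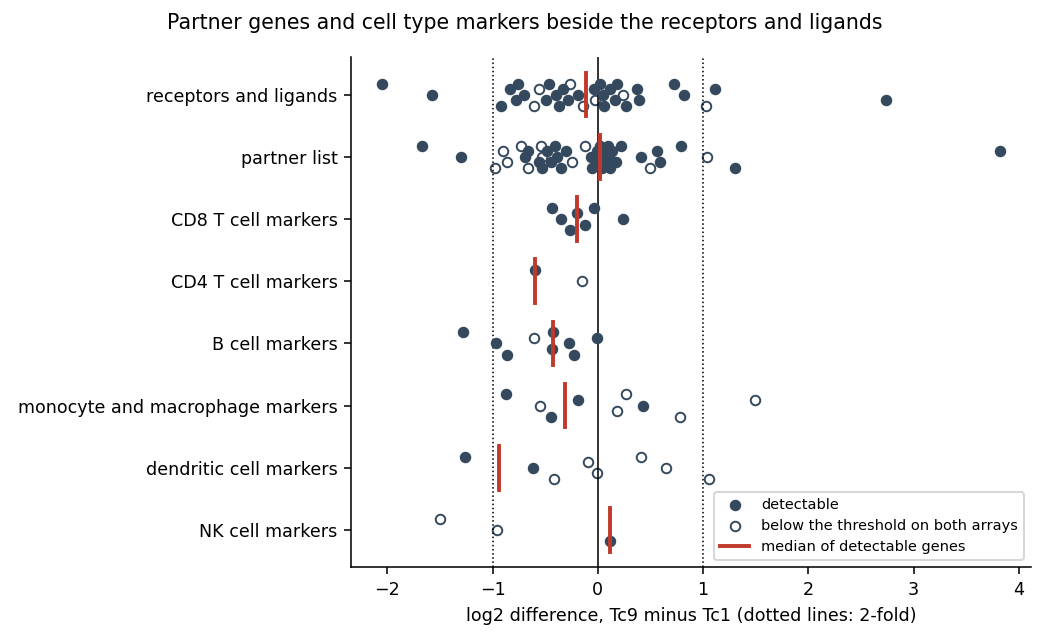
Log2 difference, Tc9 minus Tc1 (x axis), for the 35 receptors and ligands, the 44 measured partner genes and the measured markers of 6 cell types. Filled points are detectable genes, open points are below the threshold on both arrays, and bars are medians of detectable genes. The partner median is 0.02, all detectable B cell markers lie at or below -0.01, and most dendritic cell points are open.

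**Figure D5:**
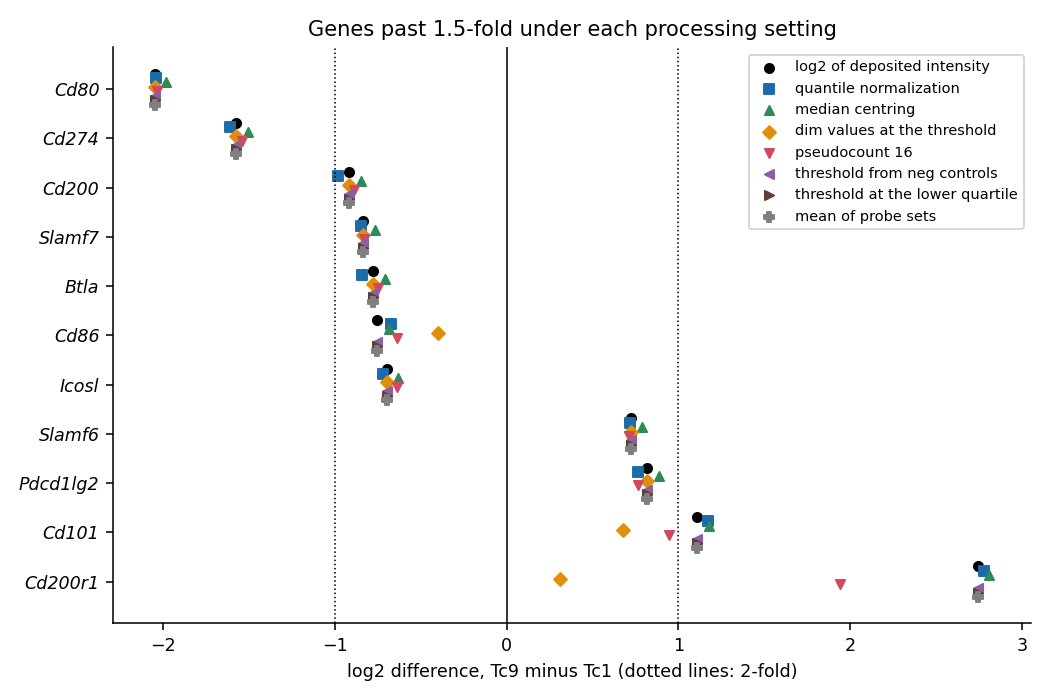
Log2 difference, Tc9 minus Tc1 (x axis), of the 11 genes past 1.5-fold under the deposited scale and 7 processing settings, with dotted lines at 2-fold. The values of Cd80 and Cd274 stay below -1 in each setting. Setting dim values at the threshold moves Cd200r1 from 2.74 to 0.31 and Cd101 from 1.11 to 0.68, and the settings that change only the threshold leave each difference as it is.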

How the data were processed

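Expression was measured on 1 Tc9 and 1 Tc1 Affymetrix array. The deposited values are probe set intensities on a linear scale. Per the labels' protocols, Trizol RNA was given a biotin label by a whole-transcript sense-target method. How the authors summarized, background-corrected and normalized the probe sets is not given in the sources used here. Intensities ran from 4.87 to 13045 on the Tc9 array and from 5.12 to 14977 on the Tc1 array, with medians of 53.1 and 57.2 in the same order, and were taken as normalized. Of 28846 probe sets, 19572 had 1 gene symbol in the platform annotation. The other 9274 had no single symbol, and those with none and those with several were not counted apart. The brighter probe set stood for each of 55 genes with several. All 35 symbols matched RefSeq (GRCm38.p6) through Entrez numbers, and 25 had a promoter sequence. The array's genome build is not given.

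Signals are log2 of the deposited intensity with no further normalization. With 1 array per group there is no test, and precision is limited by the number of arrays. A gene below the threshold on 1 array has its fold as "at least", computed against the threshold. Counts use measured values. Every listed gene is accounted for, and partner genes were named where detectable and past 2-fold (at most 8), others as ligands or adaptors of a named receptor. The genes and lists were chosen with earlier results of these data known. The counting rule was tested on simulated data with changes planted only in genes well above the threshold, so the test does not cover genes near it. Alternatives were quantile normalization, median centring, dim values at the threshold, a pseudocount of 16, other thresholds, the mean of probe sets and a 1.5-fold rule. Python 3.11.15, numpy 2.4.6, pandas 2.3.3 and matplotlib 3.10.9 were used. Listed partner and marker genes without a value were not analysed here.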

Additional observations from a re-analysis of the deposited data

How the results depend on the processing

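Cd80 and Cd274 were at least 2-fold lower on the Tc9 array under all 7 alternatives that keep the 2-fold rule. Their log2 differences lay between -2.05 and -1.98 for Cd80 and between -1.61 and -1.51 for Cd274. Only quantile normalization, median centring and the pseudocount could change these values. The other alternatives leave a gene with 1 probe set and both arrays above the threshold as it is. The count of 2 of 28 genes at least 2-fold higher became 0 with dim values at the threshold, against 204 of all 10147 detectable genes. It became 1 (Cd200r1) with a pseudocount of 16, against 218 of 10147. With the threshold at the 95th percentile of negative controls it was 1 (Cd101) of 24, against 232 of 8843. When the threshold was the lower quartile of gene values it was 3 of 33, with Havcr1, against 344 of 15177. These changes follow from how each setting treats dim signals. With the 1.5-fold rule the counts of higher and lower genes were 4 and 7 among the receptors and ligands, and 791 and 688 among all detectable genes. Over 36 named genes and 7 alternatives, 9 of 252 values moved by more than the control spread of 0.34, and no difference past 2-fold changed sign. Many of the 252 could not move, because settings that change only the threshold, and the mean of a single probe set, leave a difference as it is. The small difference of Ceacam1 (-0.04) had the other sign under 2 alternatives. Median centring shifted differences by 0.07. Negative controls that reached the threshold leaned lower on the Tc9 array, with a median of -0.37. Over 17 genes with several detectable probe sets, their differences lay 0.20 apart in the median and 0.98 at most. No paired analysis was possible because each group has 1 array.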

Other observations

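Chromosome 16 holds 7 of the 35 genes, in the GRCm38.p6 order Cd86, Cd80, Tigit, Cd200r1, Btla, Cd200 and Cd96. Their log2 differences ran from -2.05 to 2.74, with 3 above 0 and 4 below it. Btla (-0.78) and Cd200 (-0.92), which have no other protein-coding gene between them, both had lower signals on the Tc9 array, and Cd200r1 (2.74), 6 protein-coding genes away from Btla, had a higher one. Cd28, Ctla4 and Icos are consecutive on chromosome 1, and their differences lay between -0.37 and 0.05.

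Promoter windows were found for 25 of the 35 genes. Among these, the STAT6-type site was in the windows of 4 genes (Slamf1, Lair1, Cd96 and Pdcd1lg2), the AP-1 site in those of 4 (Slamf7, Cd84, Havcr2 and Cd80), the kB site in those of 2 (Icosl and Pdcd1lg2), the gamma-activated site in that of Cd96, the tandem interferon regulatory factor core in that of Pilra, and the T-box site in none. Over all windows the shares were 5.85%, 6.75%, 7.25%, 7.02%, 2.98% and 1.12% in the same order. For each of the STAT6-type, AP-1 and kB sites, the detectable genes with the motif had differences on both sides of 0.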
